A study of Mus musculus with 3 samples.

Results

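Type I interferon-stimulated genes are switched on when interferon-alpha or interferon-beta binds its receptor, IFNAR1 with IFNAR2. The kinases JAK1 and TYK2 then act on STAT2, which binds IRF9 in a complex that recognises the interferon-stimulated response element in the target promoters. The products detect viral RNA and DNA, block translation, degrade RNA, trap virus particles and feed back on the pathway itself. In the retina, microglia, Muller glia, vascular endothelium and any leukocytes that enter can all carry the response. The set examined here was a named list of 40 such genes, and 36 of the 40 had a probe set annotated to that gene alone, out of 22180 genes with such a probe set. Of the 4 others, Oas1a, Ifi203 and Dtx3l had only probe sets annotated to several genes, and Ifi44 had none with its symbol, so these 4 were not analysed here. Ifi35 had 2 probe sets and the one with the higher mean was used; each of the other 35 had 1.

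RNA from retinae of the mouse strain labelled C57 was hybridised to 3 Affymetrix whole-transcript arrays, 1 array per group and 5 to 6 pooled retinae per array. The groups compared were Cav1-shRNA, a short hairpin RNA named for caveolin-1 and injected into the vitreous 2 days before collection, cavtratin, a cell-permeable peptide with the caveolin-1 scaffolding domain, injected 2 hr before collection, and AP, injected 2 hr before collection as the control for cavtratin. The labels do not spell out AP, and they give no age, sex or genotype beyond the strain. Without replicates, each difference given here is between 2 arrays and has no test, and pooling hides any spread between animals. Comparisons with Cav1-shRNA also join 2 days to 2 hr and a hairpin to a peptide or control, which cannot be told apart. Cav1 itself had a value of 8.26 in the Cav1-shRNA, cavtratin and AP control arrays alike, an exact tie of the kind that is common in the deposited values, so this probe set gives no check of the label Cav1-shRNA.

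Values are deposited log2 levels of a probe set, and a difference of 1 is 2-fold. Levels of different genes were not ranked, since each probe set has its own scale. A gene was called at least 2-fold apart when the higher of both arrays also reached a floor of 6.50, the median over all probe sets with 1 gene symbol, and 1.5-fold, a difference of 0.58, served as a smaller second threshold. Of the 36 genes, 32 reached the floor in at least 1 array, while Isg15, Mx1, Mx2 and Bst2 lay below it in all 3. As a measure of technical and isoform spread within these arrays, and not a replicate error, 2 probe sets for the same gene gave differences that disagreed by a median of 0.040 and by up to 0.34 at the 95th percentile for cavtratin minus AP control, over 271 genes. The largest disagreement was 1.76. Where both probe sets are exact ties they disagree by 0, so this measure can be too small for genes without a tie. Rod photoreceptor markers were at a mean of 12.01 in Cav1-shRNA, 11.99 in cavtratin and 12.01 in AP control over 6 measured of 8 listed.

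Promoter sequence is shown first, for genes that hold a match to the core of the element through which the pathway acts. The core of the interferon-stimulated response element was searched as GAAA, any 2 bases and GAAA again, on both strands, from 250 bases before to 50 bases after each annotated gene start in the RefSeq promoter table of GRCm38.p6. Of the 36 measured genes 25 were in that table, and 13 of the 25, or 52.0%, held a match, against 4.0% of all 27025 genes in it. The gamma-activated site, TTCNNNGAA, was found in 7 of the 25, or 28.0%, against 9.55% of all genes, and in 2 of the 25, Ifitm3 and Bst2, the matches to both motifs overlapped. A match is a description of the letters and not a bound site. Genes without a match are not shown, among them Isg20 and Oasl1, whose arrays ranged by 0.91 and 0.74. Ifi204, whose arrays ranged by 0.90, was not in the promoter table. Below, capitals mark the match to the response element core, which reads TTTC first where it lies on the opposite strand. Rsad2 and Ifi205 are shown because they were at least 2-fold apart between arrays, Trim30a, Ifit1 and Stat2 because their values ranged most widely among the other genes with a match, and Ifit3 because it belongs to the same family as Ifit1 and also carries the element; its 3 deposited values are an exact tie.
Rsad2, chr12:26456523-26456612, minus strand: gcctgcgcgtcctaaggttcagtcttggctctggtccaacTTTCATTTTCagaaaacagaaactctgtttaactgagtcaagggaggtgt
Ifi205, chr1:174031840-174031929, minus strand: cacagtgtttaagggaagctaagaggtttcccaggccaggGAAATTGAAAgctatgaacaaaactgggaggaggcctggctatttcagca
Trim30a, chr7:104465180-104465269, minus strand: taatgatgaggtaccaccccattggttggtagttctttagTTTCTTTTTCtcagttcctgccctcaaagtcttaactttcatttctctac
Ifit1, chr19:34640745-34640853, plus strand: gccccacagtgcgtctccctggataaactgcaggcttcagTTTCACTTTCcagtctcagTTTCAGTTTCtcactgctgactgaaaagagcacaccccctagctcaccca
Stat2, chr10:128270248-128270325, plus strand: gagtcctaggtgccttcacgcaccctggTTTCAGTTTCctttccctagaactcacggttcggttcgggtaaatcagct
Ifit3, chr19:34583333-34583456, plus strand: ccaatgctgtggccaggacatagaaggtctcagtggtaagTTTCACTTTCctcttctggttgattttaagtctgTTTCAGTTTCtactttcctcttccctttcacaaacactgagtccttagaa

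The first capital lay 120 bases before the gene start in Rsad2, 134 in Ifi205, 36 in Trim30a, 104 in Ifit1, 222 in Stat2 and 156 in Ifit3. Ifit1 and Ifit3 each held 2 matches in the stretch shown, and Isg15 held 3 overlapping ones between 78 and 66 bases before its start. The 13 with a match had median differences of −0.17 for Cav1-shRNA minus cavtratin, −0.11 for Cav1-shRNA minus AP control and 0.046 for cavtratin minus AP control, and the 12 without one had −0.084, −0.073 and 0 for the same comparisons.

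**Figure D1:**
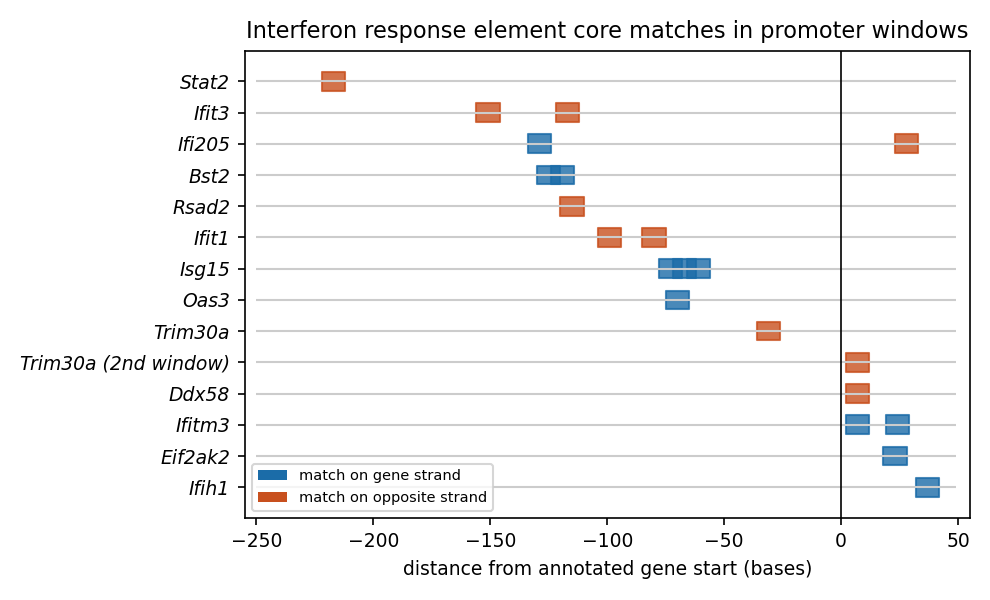
Position of each match to the interferon-stimulated response element core, in bases from the annotated gene start (x axis), in the promoter windows of the 13 measured genes that hold one (rows, with a row for each of the 2 Trim30a windows). Blue boxes lie on the gene's strand and orange boxes on the opposite strand; the boxes of Stat2, Ifit3, Ifi205, Bst2, Rsad2, Ifit1, Isg15, Oas3 and Trim30a lie before the start and those of Ddx58, Ifitm3, Eif2ak2 and Ifih1 after it, with a further match after it in Ifi205 and in the 2nd Trim30a window.

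Across the arrays, the 36 genes did not move as a single block. Among the 32 genes that reached the floor in at least 1 array, the cavtratin array alone was highest in 17, while 10.9% of the 11510 genes that reached it in the whole table had cavtratin alone highest. The Cav1-shRNA array alone was lowest in 13 of the 32, against 10.8% of those 11510 genes, and alone highest in 1, against 15.2%. AP control alone was highest in 6 of the 32, against 15.2%, and alone lowest in 9, against 14.2%. All 3 arrays were exactly equal in 5 of the 32, Dhx58, Irf1, Ifit2, Ifit3 and Oasl2, against 43.2% of all genes at or above the floor. Exact ties of that frequency are a feature of the deposited values, so a tie cannot be read as a measured lack of change. Over all 36 genes, centring each array on its median left cavtratin alone highest in 18 in place of 17 and Cav1-shRNA alone lowest in 13 in place of 14. Ties broke, so that Cav1-shRNA alone was highest in 9 in place of 2, also after quantile normalization, and AP control alone lowest in 17 in place of 9, or 11 after quantile normalization.

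**Figure D2:**
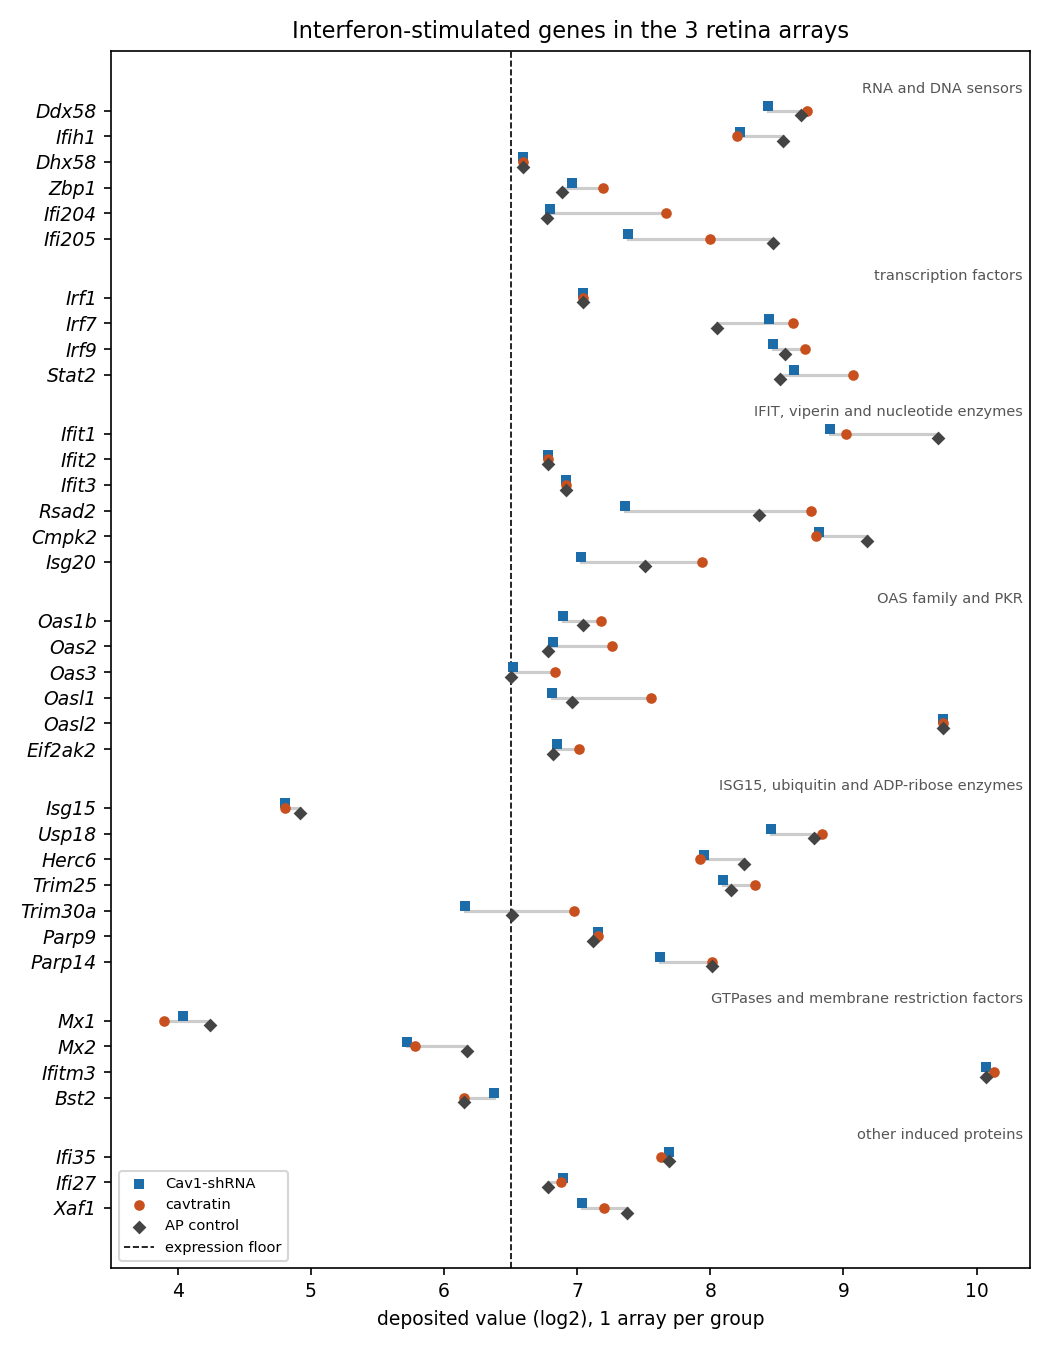
Deposited log2 value (x axis) of each of the 36 genes (rows, grouped by role) in the Cav1-shRNA array (blue squares), the cavtratin array (orange circles) and the AP control array (grey diamonds), 1 array per group; the dashed line is the floor of 6.50. The circle lies farthest right in 17 rows, the diamond in 9, and the 3 symbols share one value in 5.

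The comparison of cavtratin with AP control, both taken at 2 hr, is the one for which the control was made. Ifi204, at 0.90, and Oasl1, at 0.59, passed 1.5-fold on the higher side in cavtratin, and Ifit1, at −0.69, passed it on the lower side. Of the 36 genes 19 were above 0, 10 below and 7 exactly 0, with a median difference of 0.043; over all 22180 genes 17.5% were above 0 and 20.9% below, with a median of 0. The 36 divided into 26 above 0 and 10 below after centring. That step added 0.0067 to every gene of this comparison, so the 7 exact ties fell above 0 by construction. Quantile normalization also broke the ties and left 20 above and 16 below. Calls by fold were possible for the 32 genes whose higher array reached the floor, and their background is the share of all genes that reached it. None of the 32 was at least 2-fold higher, against 1.36% of the 11477 genes that reached the floor, and none at least 2-fold lower, against 0.0958%. At 1.5-fold, 2 were higher, against 2.19% of those 11477 genes, and 1 was lower, against 0.235%.

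The array labelled Cav1-shRNA was compared with AP control next. Rsad2, Ifi205 and Ifit1 were lower in Cav1-shRNA, and Irf7 was 0.38 higher. Of the 36 genes 10 were above 0, 19 below and 7 exactly 0, with a median difference of −0.073, against 22.4% above 0, 18.5% below and a median of 0 over all genes. Here Ifi205 and Rsad2, 2 of the 32 genes that reached the floor, passed 2-fold on the lower side, against 0.122% of 11433 such genes in the whole table, and none was at least 2-fold higher, against 0.341%. The 1.5-fold threshold added Ifit1 to the lower side, making 3 genes against 0.367%, and none was higher, against 0.901%. Once each array was centred, which added 0.058 to every gene of this comparison, the genes divided into 18 above 0 and 18 below. That shift by construction put the 7 exact ties above 0, and Trim25 crossed from −0.054 to 0.0041.

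Set against cavtratin directly, Cav1-shRNA was lower in 22 of the 36 genes, higher in 7 and equal in 7, with a median difference of −0.17. Over all genes 16.8% were lower, 22.3% higher and the median was 0. Rsad2, 1 of the 32 genes that reached the floor, was at least 2-fold lower, against 0.785% of 11472 such genes in the whole table, and at 1.5-fold 6 were lower, against 1.53%. On the higher side none reached 2-fold, against 0.0349%, or 1.5-fold, against 0.0959%. After centring, and likewise after quantile normalization, 22 genes were below 0 and 14 above, with no exact tie left. Centring added 0.051 to every gene here, so the 7 ties fell above 0 by construction.

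**Figure D3:**
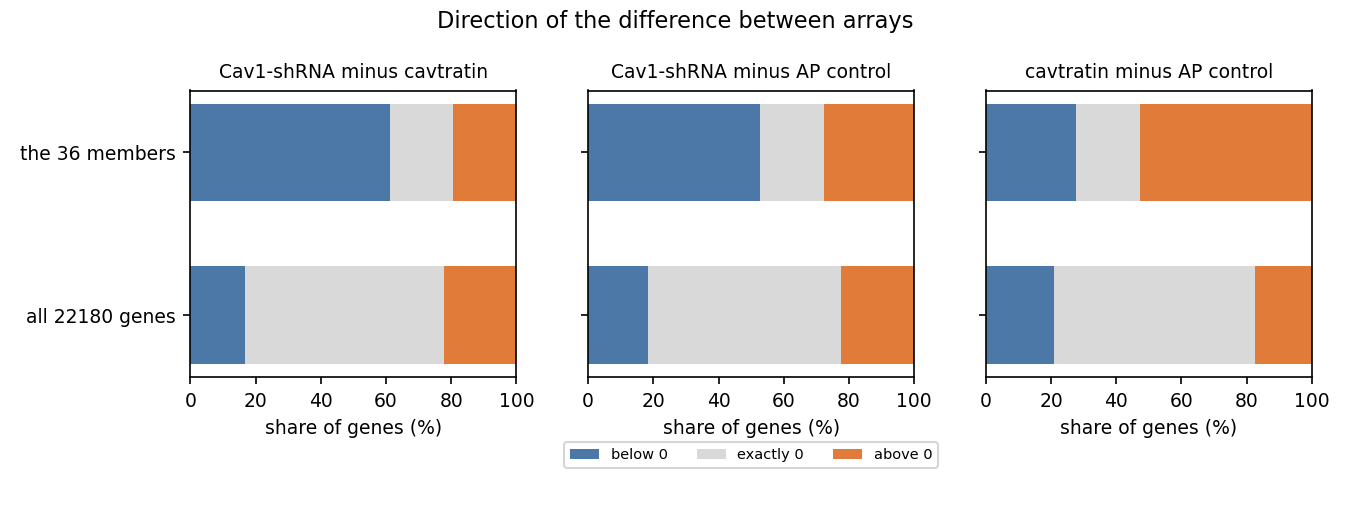
Share of genes (x axis, percent) whose difference was below 0 (blue), exactly 0 (grey) or above 0 (orange), for the 36 interferon-stimulated genes (upper bars) and all 22180 genes (lower bars) in each comparison. The 36 genes had fewer exact ties than all genes, with 61.1% below 0 for Cav1-shRNA minus cavtratin, 52.8% below 0 for Cav1-shRNA minus AP control and 52.8% above 0 for cavtratin minus AP control.

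Among the sensors, the PYHIN genes Ifi204 and Ifi205, members of a DNA-sensing family encoded in one gene cluster, moved in different ways. Ifi205 was at 7.38 in Cav1-shRNA, 7.999 in cavtratin and 8.47 in AP control, lower by 1.08 in Cav1-shRNA and by 0.47 in cavtratin than in AP control. Ifi204 was at 6.80 in Cav1-shRNA, 7.67 in cavtratin and 6.77 in AP control. AP control thus had the highest value for Ifi205 and the lowest for Ifi204, and only cavtratin stood out for Ifi204, 0.90 above AP control and just short of 2-fold. Ifih1, which encodes the long double-stranded RNA sensor MDA5, was at 8.22 in Cav1-shRNA, 8.20 in cavtratin and 8.55 in AP control. Ddx58, which encodes the RNA sensor RIG-I, was at 8.44, 8.73 and 8.68 in the same arrays. Zbp1, a Z-form nucleic acid sensor that can trigger necroptosis, was at 6.96, 7.20 and 6.89. Ifih1 was therefore lower in Cav1-shRNA and in cavtratin than in AP control, and Ddx58 lower in Cav1-shRNA alone, with differences of −0.32 and −0.24 for Cav1-shRNA minus AP control. Dhx58, which encodes the RIG-I-like regulator LGP2, was at 6.59 in all 3 arrays.

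The transcription factors had no gene past 1.5-fold. Irf7, which encodes the factor that amplifies interferon-alpha production, was at 8.44 in Cav1-shRNA, 8.62 in cavtratin and 8.05 in AP control. Stat2, a subunit of the complex that binds the response element, was at 8.63, 9.08 and 8.52. Both lay just outside 1.5-fold for cavtratin minus AP control, at 0.57 and 0.55, with Oasl1 just inside at 0.59. Irf9, the DNA-binding subunit of the same complex, was at 8.47 in Cav1-shRNA, 8.71 in cavtratin and 8.56 in AP control. Irf1, a factor induced most strongly by interferon-gamma, was at 7.05 in all 3 arrays. In this group 3 of 4 genes were above 0 for cavtratin minus AP control and none was below. Of all genes at or above the floor, 19.6% were above 0, 25.9% below and 54.5% exactly 0 in that comparison.

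The IFIT, viperin and nucleotide enzyme genes held the widest range of the set. Rsad2, which encodes viperin, an enzyme that makes a chain-terminating nucleotide, was at 7.36 in Cav1-shRNA, 8.76 in cavtratin and 8.37 in AP control. Cav1-shRNA stood apart on the low side, by 1.40 from cavtratin, a fold of 0.379, and by 1.01 from AP control, a fold of 0.496. That second difference was just inside 2-fold and became −0.95 with centred arrays and −0.98 after quantile normalization, so the 2-fold call was lost under both. Cmpk2, a mitochondrial nucleotide kinase and the protein-coding gene next to Rsad2 on chromosome 12, was at 8.82 in Cav1-shRNA, 8.79 in cavtratin and 9.18 in AP control. These neighbours differed in pattern: Cmpk2 was nearly level between Cav1-shRNA and cavtratin, at 0.026, and highest in AP control, whereas Rsad2 was highest in cavtratin.

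Ifit1, whose protein binds viral RNA ends and blocks their translation, was at 8.90 in Cav1-shRNA, 9.02 in cavtratin and 9.71 in AP control. AP control was the high array, with Cav1-shRNA lower by 0.81 and cavtratin by 0.69, and the difference for Cav1-shRNA minus cavtratin was −0.12. The related Ifit2 and Ifit3 were at 6.78 and 6.92 in every array. Isg20, an exonuclease that degrades single-stranded RNA, was at 7.03 in Cav1-shRNA, 7.94 in cavtratin and 7.51 in AP control. AP control lay between the other arrays for Isg20, with Cav1-shRNA lower than cavtratin by 0.91, a fold of 0.533.

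The oligoadenylate synthetases make the short 2′-5′-linked RNAs that activate RNase L, and Eif2ak2 encodes PKR, the kinase that stops translation when double-stranded RNA is present. In this group 5 of 6 measured genes were above 0 for cavtratin minus AP control and 1 was exactly 0. Of all genes at or above the floor, 19.6% were above 0, 25.9% below and 54.5% exactly 0. For Cav1-shRNA minus cavtratin 5 of 6 were below 0 and 1 was exactly 0, against 19.4% below, 25.9% above and 54.7% exactly 0. The many exact ties lower the background shares on both sides, so these contrasts look larger than the directions alone would make them. Oasl2, an oligoadenylate synthetase-like gene, was equal at 9.75. Oasl1, which in mouse restrains translation of Irf7, was at 6.81 in Cav1-shRNA, 7.55 in cavtratin and 6.96 in AP control, 0.74 lower in Cav1-shRNA than in cavtratin. Oas2 was at 6.82 in Cav1-shRNA, 7.26 in cavtratin and 6.78 in AP control. Cavtratin was the high array for each of these, and Cav1-shRNA and AP control were within 0.15 of each other for all 6. Oas3 at 6.52, 6.83 and 6.50, Oas1b at 6.89, 7.18 and 7.04, and Eif2ak2 at 6.85, 7.01 and 6.81, in Cav1-shRNA, cavtratin and AP control, had the same high array at differences from AP control of 0.33, 0.14 and 0.20. C57BL/6 mice are known to carry a truncating allele of Oas1b; its part in these values was not tested.

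Among the ISG15, ubiquitin and ADP-ribose enzymes, Trim30a alone passed 1.5-fold. Trim30a, a mouse TRIM protein that restrains NF-kB signalling, was at 6.16 in Cav1-shRNA, 6.98 in cavtratin and 6.51 in AP control. AP control lay between the others, and Cav1-shRNA, itself below the floor, was 0.82 lower than cavtratin. Usp18, which removes ISG15 and blocks signalling at the interferon receptor, was at 8.45 in Cav1-shRNA, 8.84 in cavtratin and 8.78 in AP control. Parp14, a mono-ADP-ribosyltransferase, was at 7.63, 8.01 and 8.01 in the same arrays, with Cav1-shRNA 0.38 below both others. Herc6, the ISG15 ligase in mouse, followed another order, at 7.96 in Cav1-shRNA, 7.92 in cavtratin and 8.25 in AP control, so that AP control was high. Trim25, a ubiquitin ligase that activates RIG-I, was at 8.10, 8.34 and 8.15, with a difference of −0.054 for Cav1-shRNA minus AP control that turned to 0.0041 with centred arrays. Parp9, the partner of the ubiquitin ligase DTX3L, was at 7.16 in Cav1-shRNA and cavtratin and 7.12 in AP control. Isg15, the ubiquitin-like modifier itself, was below the floor at 4.81, 4.81 and 4.92, so the probe set gives little information on a gene that is usually prominent in the response.

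Of the GTPases and membrane restriction factors, Ifitm3, which blocks viral fusion in endosomes, was at 10.08 in Cav1-shRNA, 10.13 in cavtratin and 10.08 in AP control. It was thus nearly level. Mx1 and Mx2, dynamin-like GTPases, lay below the floor in all arrays, with Mx1 at 4.04 in Cav1-shRNA, 3.89 in cavtratin and 4.24 in AP control and Mx2 at 5.72, 5.78 and 6.17. Both were highest in AP control, though at values too low to read. Most laboratory strains, C57BL/6 among them, carry a deletion in Mx1. Bst2, which encodes tetherin, a tether of budding virus, was at 6.38 in Cav1-shRNA and 6.15 in the other arrays, also below the floor. Ifi35, Ifi27 and Xaf1, the remaining genes, differed by at most 0.34 in any comparison, and that was Xaf1, an XIAP-binding protein, at 7.03 in Cav1-shRNA, 7.20 in cavtratin and 7.37 in AP control.

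**Figure D4:**
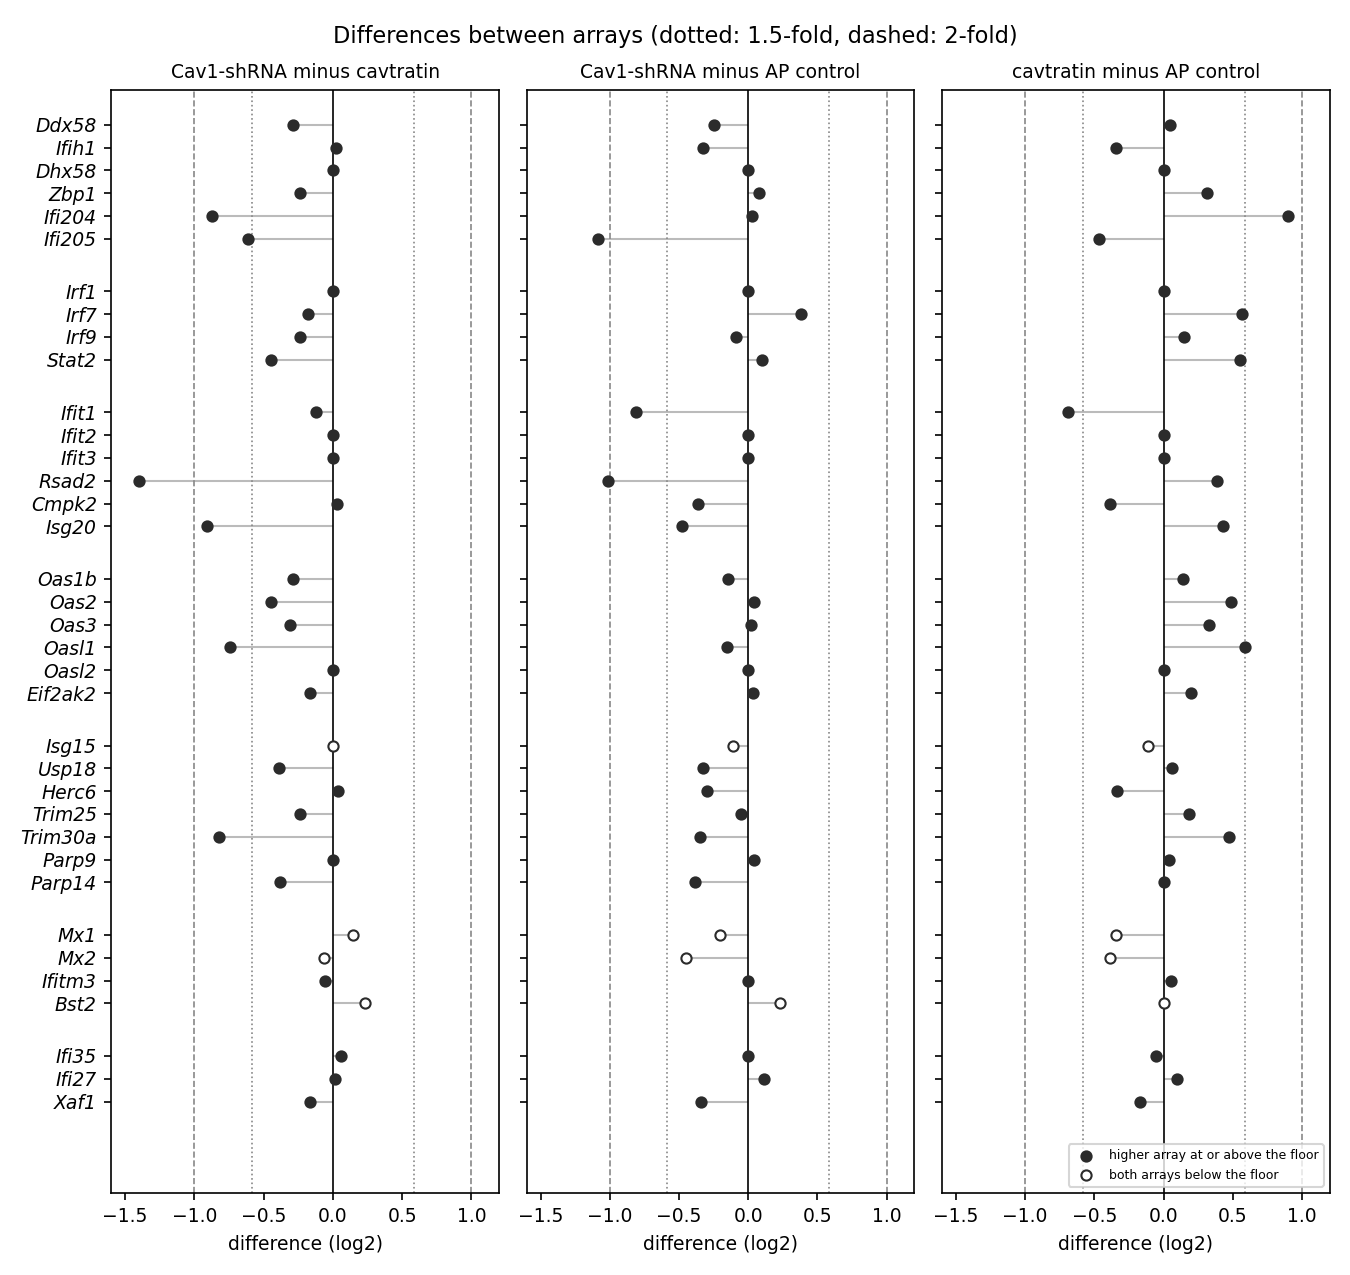
Difference of deposited log2 values (x axis) for each of the 36 genes (rows, in the same role order) in the 3 comparisons; filled points have the higher array at or above the floor, open points do not, dotted lines mark 1.5-fold and dashed lines 2-fold. Rsad2 reached −1.40 in the left panel, Ifi205 and Rsad2 passed −1 in the middle panel, and no point passed 2-fold in the right panel, where Ifi204 came nearest at 0.90.

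Upstream of these genes, the interferon ligands gave little signal. Of 19 measured ligand genes 4 reached the floor, Ifna1, Ifna4, Ifna14 and Ifnl2, and none of these 4 was 1.5-fold apart in any comparison. Ifnb1, the interferon-beta gene, was at 3.53 in every array, far below the floor, and the interferon-alpha genes are close copies that probes may not separate. Among 9 measured receptor and kinase genes, Ifnar2, a receptor chain, was at 8.81 in Cav1-shRNA, 9.04 in cavtratin and 8.55 in AP control, and Ifnar1 at 9.08, 9.14 and 9.06. Il10rb, the chain shared by the interferon-lambda and interleukin-10 receptors, was at 7.72 in Cav1-shRNA, 7.98 in cavtratin and 7.20 in AP control. It was the 1 gene of the 9 past 1.5-fold, at 0.78 for cavtratin minus AP control. In that comparison 8 of the 9 were above 0 and 1 was exactly 0. Over all genes 17.5% were above 0, 20.9% below and 61.6% exactly 0.

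In the induction pathway, the kinase gene Ikbke differed most. Ikbke, which encodes a kinase that activates IRF3 and IRF7, was at 7.38 in Cav1-shRNA, 8.17 in cavtratin and 6.15 in AP control, higher than AP control by 1.23 and 2.02. AP control was below the floor, so both folds can be too small. Tlr2, a receptor for bacterial lipoproteins, was at 6.65 in Cav1-shRNA, 7.43 in cavtratin and 7.39 in AP control. The other 10 measured genes of this list were under 1.5-fold or below the floor, and Tlr3, the double-stranded RNA receptor, was at 8.14, 7.96 and 8.41. Of the 5 negative regulators none passed 1.5-fold. Socs3, a feedback inhibitor of JAK kinases, was at 7.91 in cavtratin and 7.37 in Cav1-shRNA and AP control, while Socs1 was equal in all arrays.

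A further list held other interferon-inducible genes, 48 measured of 52, of which 33 reached the floor in at least 1 array. The median over all 48 was 0 in every comparison, each with 11 to 15 exact ties. Among the 33, at 1.5-fold, 2 were lower in Cav1-shRNA than in cavtratin and 3 were lower in Cav1-shRNA than in AP control. In cavtratin 1 was higher and 2 lower than in AP control. Over the whole table, the shares of genes reaching the floor that passed 1.5-fold in those directions were 1.53%, 0.367%, 2.19% and 0.235%. Cxcl10, a chemokine that draws T cells, was at 6.42 in Cav1-shRNA, 7.03 in cavtratin and 10.32 in AP control. Gbp3, a guanylate-binding protein gene, was at 6.58, 6.45 and 7.27 in the same arrays. Like Ifit1, these were high in AP control. Trim30d, a close relative of Trim30a, was at 6.11 in Cav1-shRNA, 7.27 in cavtratin and 6.78 in AP control, the same order as Trim30a. Ifitm1, of the Ifitm3 family, was at 6.20, 6.77 and 5.89, with cavtratin the 1 array above the floor.

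**Figure D5:**
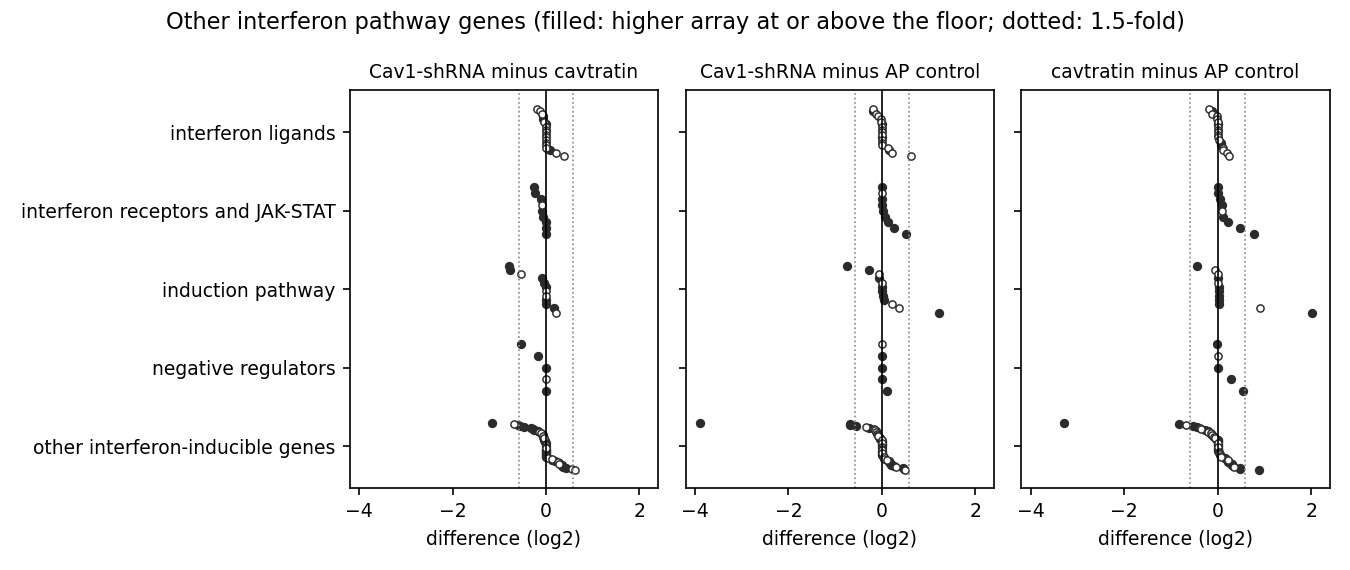
Difference of deposited log2 values (x axis) for the other genes of the interferon pathway, by list (rows), in the 3 comparisons; each point is a gene, filled where the higher array reached the floor, and dotted lines mark 1.5-fold. Cxcl10 is the point at −3.90 and −3.29 in the comparisons with AP control, and Ikbke the one at 1.23 and 2.02.

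Markers of leukocytes differed between the same arrays. Neutrophil markers, 10 measured of 10, were at a mean of 6.66 in Cav1-shRNA, 7.69 in cavtratin and 6.24 in AP control. In at least 1 array 8 of them reached the floor. Ly6g, at 4.94 in Cav1-shRNA, 5.47 in cavtratin and 4.92 in AP control, and Camp, an exact tie at 3.59, did not. Of the 10, 9 were above 0 for cavtratin minus AP control and 1 was exactly 0. Over all genes 17.5% were above 0, 20.9% below and 61.6% exactly 0. Microglia and macrophage markers were at means of 7.75 in Cav1-shRNA, 7.85 in cavtratin and 7.29 in AP control over 12 of 13. Cd68, Fcer1g, Mpeg1 and Ptprc were the 4 past 1.5-fold, higher both in cavtratin and in Cav1-shRNA than in AP control. Of all genes that reached the floor, 2.19% and 0.901% passed it in those directions. For cavtratin minus AP control the median difference over the 12 was 0.028, with 8 above 0, 1 below and 3 exactly 0. P2ry12, Tmem119, Cx3cr1 and Aif1 differed by at most 0.014. P2ry12 and Aif1 were exact ties there, and Tmem119 and Aif1 lay below the floor, so these give little information on microglia. Csf1r, on the same list, was at 7.80 in Cav1-shRNA, 7.81 in cavtratin and 7.50 in AP control. Monocyte markers, 6 of 7, were at means of 6.82, 6.71 and 6.33 in the same arrays. Of the 6, 3 reached the floor in at least 1 array, while Ccr2, Chil3 and Vcan lay below it in every array, so their directions give little information. Although the mean was highest in Cav1-shRNA, 4 of the 6 were lower there than in cavtratin, 1 was higher and 1 was equal. Over all genes 16.8% were lower, 22.3% higher and 60.8% equal. Ly6c2 was the 1 that was higher, at 8.08 in Cav1-shRNA, 6.16 in cavtratin and 6.59 in AP control. Neutrophil markers thus had the same high array as the 17 genes led by Ifi204 and Oasl1, and their part in those differences was not tested. Plasmacytoid dendritic cells are the main makers of interferon-alpha. Siglech, a gene on the list for these cells, lay below the floor at 5.72 in every array, an exact tie. Of the 6 measured genes of that list 1 reached the floor, Tcf4, at 9.73 in every array. T and NK cell markers were below the floor too, 8 of 8. In pooled tissue, fewer cells of a type and less RNA per cell cannot be told apart. The lens list, genes of a neighbouring tissue, was at a mean of 6.83 in Cav1-shRNA, 8.02 in cavtratin and 6.89 in AP control. That mean, over 12 of 12, was again highest in cavtratin. The 5 genes of the list at least 2-fold higher in cavtratin than in AP control were all crystallins, Cryba1, Cryaa, Crygs, Cryba4 and Cryba2. The share of all genes that reached the floor was 1.36%. Other genes of the list did not follow. Mip was at 6.76 in Cav1-shRNA, 6.74 in cavtratin and 6.80 in AP control. Lim2, an exact tie at 5.59, and Bfsp1 and Bfsp2 lay below the floor in every array. The part of the lens in the results was not tested. Muller glia markers, 8 of 8, were at means of 9.94 in Cav1-shRNA, 9.92 in cavtratin and 9.84 in AP control. Vascular endothelium markers, 8 of 8, were at 7.54, 7.44 and 7.29, so both lists had their highest mean in Cav1-shRNA.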

How the data were processed

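The deposited table held 41345 probe sets for 3 arrays, and its values were read as log2 expression from their range; how they were summarised and normalized, and the log base, is "not given in the sources used here". Per the labels' protocols, total RNA was extracted with TRIZOL, amplified and biotin-labelled. GEO's annotation of the platform, possibly out of date, paired 23521 probe sets with 1 symbol, and the probe set with the highest mean was kept per gene. All 36 measured genes matched RefSeq by Entrez identifier with the same symbol. Differences, counts and medians were computed with Python 3.11.15, pandas 2.3.3 and statsmodels 0.14.6, and counting was tested on simulated data. With 1 array per group no test exists, and the number of arrays limits the precision. Ties were taken at 1e-09. The genes, role groups, 5 pathway lists and 11 cell type lists were chosen with earlier results of these data known. Genes of the set and of the pathway lists that passed 1.5-fold are given in full, others as examples. Cell type means are given for the rod, Muller glia, endothelium, microglia and macrophage, neutrophil, monocyte and lens lists only. Alternatives covered scaling, floors, thresholds and averaged probe sets.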

Additional observations from a re-analysis of the deposited data

How the results depend on the processing

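Counts at 2-fold depended mainly on the threshold. At 1.5-fold they became 2 higher and 1 lower for cavtratin minus AP control, and 6 lower for Cav1-shRNA minus cavtratin; at 3-fold both Cav1-shRNA comparisons had 0 lower. For Cav1-shRNA minus AP control, 1 gene stayed 2-fold lower in place of 2 after centring and after quantile normalization, and the median became −0.015, −0.048 and, over genes at or above the floor, −0.027. Under the 1.5-fold threshold 5 genes in place of 6 were lower for Cav1-shRNA minus cavtratin after centring, after quantile normalization and with the floor at the 60th percentile. In settings chosen after seeing the data, quantile normalization left cavtratin alone lowest in 11 genes, and both scalings left Cav1-shRNA alone highest in 9, since exact ties broke. Of the 21 differences of the 7 genes past 1.5-fold, 3 moved by over 1.5 times after centring and 1 after quantile normalization, and 0 changed sign. Averaging probe sets could not move them, as each of the 7 has 1 probe set, and the loess trend followed the ties and was close to 0, so it changed nothing by construction. No paired analysis was possible because each group had 1 array and no result comes from a test.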
